A study of Mus musculus with 4 samples.

Results

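The CD94, NKG2 and related lectins are 8 of the 27998 genes counted in these single-cell RNA-seq libraries. They were chosen by symbol: Klrd1 (CD94), Klrc1 (NKG2A), Klrc2 (NKG2C), Klrc3 (NKG2E), Klrk1 (NKG2D), Klre1, Klri1 and Klri2. Their unique molecular identifiers (UMIs, 1 per captured RNA molecule) were read in barcodes with at least 1 UMI of Cd3e, a subunit of the T cell receptor complex, with 200 genes or more, no more than 20000 UMIs and a mitochondrial share of up to 10%, which left 21342 of 32525 barcodes. The cells were unconventional αβ T cells (UTCαβ), that is CD45+ TCRβ+ cells without CD4, CD8, CD11b or TCRγδ on their surface, sorted from sarcomas that the carcinogen 3-methylcholanthrene (3-MCA) induced in C57BL/6J mice. The genotypes were Csf3r+/+ and Csf3r-/-. In Csf3r-/- mice every cell of the body lacks the G-CSF receptor and neutrophils are scarce. Each genotype gave 2 libraries described as biological replicates. All mice of both genotypes had received 3-MCA and carried a tumor; their ages are not given in the sources used here.

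CD94 and the NKG2 chains are C-type lectin-like receptors of NK cells and of T cells with NK-like features. CD94 forms a dimer with an NKG2 chain and binds the nonclassical MHC molecule encoded by H2-T23: NKG2A carries inhibitory motifs that recruit the phosphatase encoded by Ptpn6, whereas NKG2C and NKG2E signal through the adaptor DAP12 (Tyrobp). NKG2D stands apart, as a homodimer that binds stress-induced ligands of the Raet1, H60 and Ulbp1 families and signals through DAP10 (Hcst) or DAP12, and KLRE1 is the partner chain of the inhibitory KLRI1 and the activating KLRI2.

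In the GRCm38 annotation the 8 genes lie side by side on chromosome 6, chr6:129577905-129740484, a stretch of 162.58 kb that holds 8 protein-coding genes, all of them members, none overlapping another. Klre1 (ENSMUSG00000050241) and Klrd1 (ENSMUSG00000030165) are on the plus strand, followed on the minus strand by Klrk1 (ENSMUSG00000030149), Klrc3 (ENSMUSG00000033027), Klrc2 (ENSMUSG00000052736), Klrc1 (ENSMUSG00000030167), Klri1 (ENSMUSG00000067610) and Klri2 (ENSMUSG00000043932). Klrc1, Klrc2 and Klrc3 are near copies at their 3′ ends, the part that the libraries read. Of the 31-base words in the last 300 bases of their transcripts, 35.2% were shared with another of these genes for Klrc1, 12.5% for Klrc2 and 47.1% for Klrc3, and 0% for each of the other 5 members. Reads that could not be placed on 1 gene are dropped in this kind of counting, so levels of these 3 genes are uncertain, that of Klrc3 most of all.

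The regions around the transcription starts are printed for the 3 NKG2 chains that pair with CD94 and for NKG2D. Of these 4 genes, 3 were called in the comparison of cell classes (Klrc3 was too low for the test). Klre1 was called there as well, but its regions are not printed. Each printed region runs from 250 bases before to 50 bases after the start. It is written 5′ to 3′ along the transcript and comes from RefSeq (GRCm38.p6). Capitals mark the RUNX core (TGTGGT, or ACCACA on the other strand).
Klrc1 (chr6:129678924-129679223, minus strand): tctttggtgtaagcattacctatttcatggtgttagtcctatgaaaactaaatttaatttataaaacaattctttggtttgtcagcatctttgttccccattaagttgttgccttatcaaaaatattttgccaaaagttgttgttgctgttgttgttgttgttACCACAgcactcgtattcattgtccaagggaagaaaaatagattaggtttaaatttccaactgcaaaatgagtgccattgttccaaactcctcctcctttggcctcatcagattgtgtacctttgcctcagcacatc
Klrc2 (chr6:129660507-129660806, minus strand): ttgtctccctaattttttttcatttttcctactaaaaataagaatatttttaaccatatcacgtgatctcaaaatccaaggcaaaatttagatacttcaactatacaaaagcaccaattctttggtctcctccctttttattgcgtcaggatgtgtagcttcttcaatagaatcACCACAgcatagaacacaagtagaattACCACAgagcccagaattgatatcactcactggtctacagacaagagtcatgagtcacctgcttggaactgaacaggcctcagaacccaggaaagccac
Klrc3 (chr6:129643239-129643538, minus strand): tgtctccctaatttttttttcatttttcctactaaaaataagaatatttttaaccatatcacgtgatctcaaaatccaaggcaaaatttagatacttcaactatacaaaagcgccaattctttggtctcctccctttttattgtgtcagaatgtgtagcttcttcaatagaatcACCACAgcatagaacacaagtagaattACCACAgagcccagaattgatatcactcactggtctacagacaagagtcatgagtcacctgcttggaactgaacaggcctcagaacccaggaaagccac
Klrk1 (chr6:129623815-129624114, minus strand): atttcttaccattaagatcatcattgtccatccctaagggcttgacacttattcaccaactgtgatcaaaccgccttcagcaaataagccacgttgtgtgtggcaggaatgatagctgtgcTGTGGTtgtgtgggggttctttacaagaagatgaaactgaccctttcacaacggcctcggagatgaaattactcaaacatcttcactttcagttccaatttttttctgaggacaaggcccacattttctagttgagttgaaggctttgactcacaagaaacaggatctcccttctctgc
RefSeq start regions were at hand for 6 of the 8 members, in 8 windows. The RUNX core was found in 6 of these 8 windows, and 16.8% of all 32851 RefSeq windows of this length held it. The member windows are not separate sequences. Those of Klrc2 overlapped (260 of 260 aligned bases identical), so the same cores were counted in each. Those of Klre1 overlapped as well (227 of 227). The RUNX core was in every window of 4 of these 6 members, the 4 printed here. It was in at least 1 window of 5 (for Klre1 only in chr6:129577963-129578262), and in no window of Klri1. The T-box letters GGTGTGA and the STAT letters TTCNNNGAA, searched on both strands, were in 0 of the 8 member windows and in 3.98% and 8.30% of all windows. The windows of Klrc2 and Klrc3 were almost the same sequence, with 296 of 299 aligned bases identical (98.997%), while the Klrc1 window shared 64.7% of 170 aligned bases with that of Klrc2. Similar shares, over shorter alignments, came from Klrc3 with Klrk1 (66.7% of 87 bases) and Klrk1 with Klri1 (68.75% of 80 bases). These matches are a description of the letters only.

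The libraries held 2843, 6458, 5215 and 6826 cells (Csf3r+/+ libraries 1 and 2, then Csf3r-/- libraries 1 and 2, the order used throughout) and 9827411 to 23753033 UMIs. Csf3r-/- cells were shallower, with median UMIs per cell of 2239 and 1983 against 3055 and 3026. Csf3r itself had 1 to 3 UMIs per library, too few to check the genotype labels. Each pair of libraries shared 20 to 56 barcodes, at most 1.02% of the smaller library. The 4 T cell genes in the matrix were found throughout, CD4 T cell and neutrophil markers were near 0 (at most 4.62 and 1.48 CPM, or UMIs per 1000000 UMIs), Cd8a and Cd8b1 together gave 7.79 to 32.1 CPM, and none of the 4 γδ T cell genes was in the matrix. Macrophage markers varied most, from 22.4 CPM in Csf3r+/+ library 1 to 1507 in Csf3r-/- library 2.

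A pair of cell sets within the sort is used throughout. With each cell thinned to 1500 UMIs, type 1 marker cells had at least 2 UMIs of the NK and Th1-like genes Tbx21, Eomes, Ifng, Gzmb, Prf1, Il12rb2 and Xcl1, and type 3 marker cells had at least 2 UMIs of a list of 7 genes that included Tmem176a, Tmem176b, Il17a, Il23r, Ccr6 and Blk, each with fewer than 2 of the other list. Type 1 marker cells made up 39.0%, 61.6%, 11.9% and 11.3% of the thinned cells, and type 3 marker cells 47.9%, 7.52%, 71.1% and 74.2%. Thus the Csf3r-/- libraries held fewer type 1 marker cells than either Csf3r+/+ library, and Csf3r+/+ library 2 stood apart by its few type 3 marker cells.

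The lectins were far higher in type 1 than in type 3 marker cells. Klrd1 was at 995, 733, 713 and 671 CPM (its UMIs per 1000000 UMIs of those cells, not divided by gene length) in type 1 marker cells and at 15.9, 218, 45.2 and 52.4 in type 3 marker cells. Its inhibitory partner Klrc1 was at 162, 277, 127 and 150 against 4.15, 66.3, 6.57 and 12.6, and its activating partner Klrc2 at 105, 166, 148 and 131 against 0.977, 36.9, 6.80 and 9.41. For all 3 genes the highest type 3 value was that of Csf3r+/+ library 2. Klre1 was at 444, 282, 340 and 267 against 6.84, 54.9, 18.3 and 20.5, and its activating partner Klri2 at 33.6, 65.6, 57.7 and 48.3 against 1.46, 11.5, 1.34 and 3.49. Klrk1 was at 987, 1162, 892 and 982 in type 1 marker cells, and was still at 81.1, 364, 214 and 361 in type 3 marker cells.

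**Figure D1:**
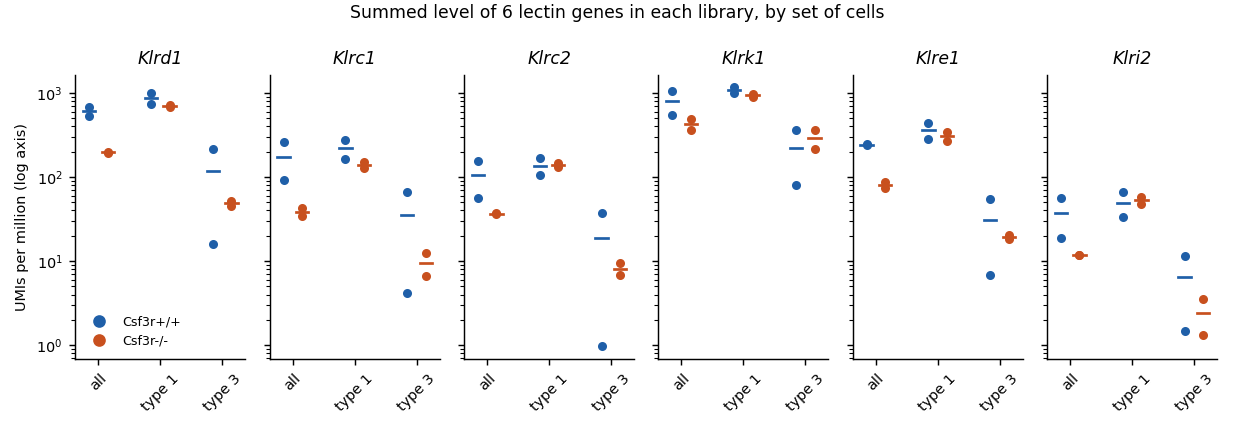
Level of 6 lectin genes in each library, as CPM on a log axis, in all cells, type 1 marker cells and type 3 marker cells. Points are libraries, blue for Csf3r+/+ and orange for Csf3r-/-. In all cells the genotypes lie apart. In type 1 marker cells they come closer (Klrd1 between 671 and 995), without overlap for Klrd1, Klrc1 and Klrk1.

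In the test of type 1 against type 3 marker cells within libraries (edgeR's quasi-likelihood test, Benjamini-Hochberg adjusted over 9727 genes), all 6 members tested were higher in type 1 marker cells, against 16.4% of all genes tested. Klri2 was higher by 4.27 (log2, SE 0.33, adjusted p = 0.000109), Klre1 by 4.19 (SE 0.45, adjusted p = 0.000358) and Klrc2 by 4.10 (SE 0.42, adjusted p = 0.000306). Klrd1 was higher by 3.96 (SE 0.56, adjusted p = 0.00129), Klrc1 by 3.82 (SE 0.39, adjusted p = 0.000306) and Klrk1 by 2.36 (SE 0.31, adjusted p = 0.000886). The smallest class difference was thus that of NKG2D, though differences between members were not tested. Klrc3 and Klri1 were too low for the test in every comparison, with 1 to 20 and 3 to 39 UMIs per library. NK cell markers (Ncr1, Fcer1g, Tyrobp, Klrb1c and Itga2) also moved with the class, with summed levels of 970 to 1995 CPM in type 1 and 41.0 to 284 in type 3 marker cells, and Itga2 was at 0 in the type 3 marker cells of Csf3r+/+ library 2. Without cells that had a UMI of Ncr1 or Fcer1g, the 6 members were still higher by 2.36 to 4.76 (log2).

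The partners of the lectins were split. Of 13 signalling genes tested, 5 rose in type 1 marker cells and 1 fell, with a list median of 0.25 (log2) against 0.01 over all genes. Tyrobp, the DAP12 adaptor, was higher by 3.01 (adjusted p = 0.00805), the phospholipase gene Plcg2 by 2.55 (adjusted p = 0.00499), the exchange factor gene Vav3 by 2.45 (adjusted p = 0.000940) and the kinase gene Fyn by 0.71 (adjusted p = 0.00125). Of the 3 phosphatase genes of the inhibitory arm, Ptpn6 rose by 0.86 (adjusted p = 0.00146) and Ptpn11 by 0.44 (adjusted p = 0.0475), and Inpp5d decreased by 0.47 (adjusted p = 0.00669). In a list of 8 genes of cytokine receptors and their signalling, 4 rose. Il2rb, the shared IL-2 and IL-15 receptor chain, rose by 1.82 (adjusted p = 0.000513) and Il15ra by 0.71 (adjusted p = 0.0223). The TGF-β receptor gene Tgfbr1 rose by 0.68 (adjusted p = 0.00830) and the kinase gene Jak3 by 0.37 (adjusted p = 0.0448). Of 7 genes tested in a list of ligand, MHC and peptide supply genes, only the classical MHC gene H2-K1 passed, by 0.42 (adjusted p = 0.00242). H2-T23 itself (-0.09, adjusted p = 0.561) and the classical MHC gene H2-D1 (0.08, adjusted p = 0.436) did not. The CD94 ligand gene H2-T23 was detected in the sorted cells themselves, at 219, 166, 242 and 125 CPM over all cells, and the NKG2D ligand genes Raet1d, Raet1e, H60b and H60c were too low for the test.

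Across all cells, the lectins were lower in Csf3r-/- tumors, and the genotypes did not overlap for 6 of the 6 members tested, against 17.4% of 11491 genes lower in both Csf3r-/- libraries. Klrd1 was at 532, 688, 201 and 194 CPM. This gave 610 ± 111 in Csf3r+/+ and 198 ± 4.60 in Csf3r-/- (SD, n = 2 each). Klre1 was at 237, 246, 88.0 and 74.3, the smallest spread within genotypes relative to the gap. For Klrc1 the values were 92.8, 257, 34.4 and 42.5, for Klrc2 56.3, 154, 37.6 and 36.0, and for Klri2 18.8, 56.0, 11.8 and 11.7. In these 3 genes Csf3r+/+ library 2 was far above library 1, and library 1 came closer to the Csf3r-/- values. Klrk1 was at 553, 1055, 362 and 494, again with most of the gap in Csf3r+/+ library 2. The scarce members were at 0.611, 1.64, 0.212 and 0.308 for Klri1, apart between genotypes, and at 0.204, 0.842, 0.0706 and 0.308 for Klrc3, which overlapped.

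None of these differences passed the threshold in edgeR's quasi-likelihood test, which called 0 of 11491 genes (0%), with 1663 at an unadjusted p under 0.05. The change in Csf3r-/- over Csf3r+/+ was -1.68 for Klre1 (log2, SE 0.19, adjusted p = 0.0715), -1.74 for Klrd1 (SE 0.25, adjusted p = 0.0861), -2.32 for Klrc1 (SE 0.58, adjusted p = 0.192), -1.82 for Klri2 (SE 0.59, adjusted p = 0.280), -1.66 for Klrc2 (SE 0.55, adjusted p = 0.284) and -1.03 for Klrk1 (SE 0.43, adjusted p = 0.375). Their median was -1.71 beside 0.00 over all genes. DESeq2 called 5 of the 6 as lower, all but Klrk1, where 3.72% of genes were so called, and edgeR without Csf3r+/+ library 1 called the same 5, where 4% of genes were lower, with Klrd1 at -1.98 (adjusted p = 0.0189) and Klrc1 at -2.92 (adjusted p = 0.0189). Without Csf3r+/+ library 2 none passed, and the changes were smaller, -1.29 for Klrc1 (adjusted p = 0.134), -0.63 for Klrc2 (adjusted p = 0.168), -0.70 for Klri2 (adjusted p = 0.178) and -0.38 for Klrk1 (adjusted p = 0.469). Klre1 was then at -1.57 and Klrd1 at -1.45 (adjusted p = 0.0743 for both). With the library number as a block, Klre1, Klrd1 and Klrc1 passed (adjusted p = 0.0288, 0.0333 and 0.0445), among the 1.91% of genes called lower. The share of type 1 marker cells moved with these levels, as given above, and in such sums fewer cells of a type and less RNA per cell cannot be told apart. NK cell markers moved too, at 1021, 856, 376 and 373 CPM. Without cells with Ncr1 or Fcer1g the changes were -1.02 to -2.80, with adjusted p of 0.233 to 0.656.

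Within type 1 marker cells the gap between genotypes was small. There edgeR's quasi-likelihood test called 63 of 9159 genes (0.688%), and no member: Klrd1 changed by -0.33 (log2, SE 0.23), Klre1 by -0.27 (SE 0.26), Klrk1 by -0.22 (SE 0.25), Klrc2 by 0.00 (SE 0.29) and Klri2 by 0.04 (SE 0.36), each with an adjusted p of 0.9999. Klrc1, the inhibitory chain, had the largest change, -0.69 (SE 0.33, adjusted p = 0.902), and without Csf3r+/+ library 1 it reached -1.07 (adjusted p = 0.00476), where 4.22% of genes were called lower, whereas without Csf3r+/+ library 2 it was -0.18 (adjusted p = 0.785). The genotypes were apart for Klrd1, Klrc1 and Klrk1, 3 of 6 members against 14.9% of genes, and overlapped for the other 3. In type 3 marker cells, 0 of 10441 genes were called (0%; 1017 at an unadjusted p under 0.05, and 211 by DESeq2), with Klrc1 at -1.75 (SE 1.22), Klrd1 at -1.25 (SE 1.12), Klri2 at -1.16 (SE 1.10), Klrc2 at -1.01 (SE 1.36), Klre1 at -0.56 (SE 0.92) and Klrk1 at 0.35 (SE 0.74). The direction there rested on Csf3r+/+ library 2, which held 475 type 3 marker cells: without it Klrd1 was at 1.63 and Klrc2 at 3.05.

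**Figure D2:**
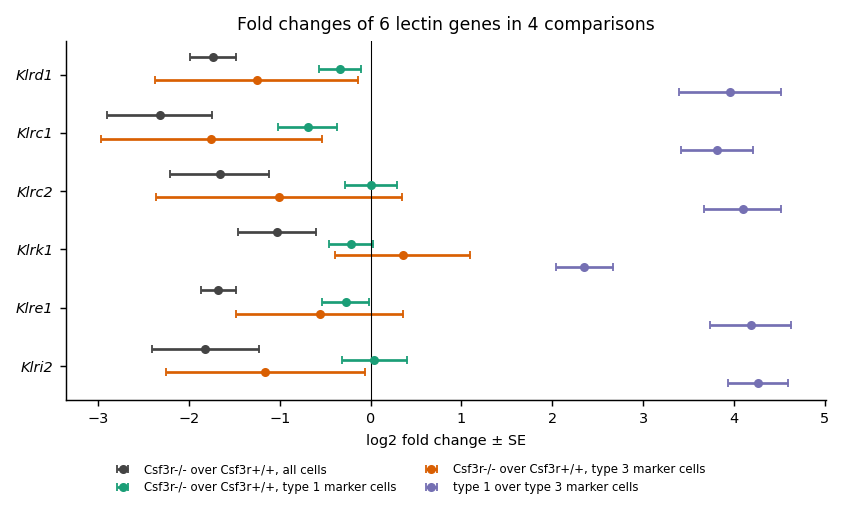
Log2 fold change with its standard error for 6 lectin genes in 4 comparisons, each a color. The class difference lies to the right of 0 for every gene (2.36 to 4.27), the genotype difference in all cells to the left (-1.03 to -2.32), and that within type 1 marker cells near 0 (-0.69 to 0.04); error bars are widest in type 3 marker cells.

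Whether the class difference itself changed with genotype was tested as an interaction, which called 23 of 10353 genes (0.222%) and no member. The terms were -0.89 for Klrk1 (log2, SE 0.49, adjusted p = 0.732), 1.03 for Klri2, 0.59 for Klrc1, 0.52 for Klrc2, 0.15 for Klrd1 and -0.12 for Klre1. Single libraries moved these terms: without Csf3r+/+ library 2, Klrd1 was at -2.12 (adjusted p = 0.00709), Klre1 at -2.04 (adjusted p = 0.0247) and Klrk1 at -1.84 (adjusted p = 0.0215), where 0.793% of genes were called, and without Csf3r+/+ library 1, Klrd1 was at 2.01 (adjusted p = 0.00666), where 0.373% were called. None of the 4 lists of partner genes had a member called in the interaction or in any of the 3 comparisons of genotypes.

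Counted per cell, with 1500 UMIs drawn from each, Klrd1 was found in 32.7%, 56.3%, 15.7% and 14.97% of cells (41.5%, 75.1%, 19.7% and 18.6% without thinning). The 1718 cells under 1500 UMIs were left out, 63, 139, 541 and 975 by library. The difference of genotype means was -29.2 percentage points (exact permutation test over libraries, two-sided, p = 0.333, the smallest that 2 against 2 allows). Klrk1 was found in 38.2%, 68.1%, 32.7% and 41.7%, overlapping between genotypes, Klre1 in 19.9%, 25.1%, 8.15% and 7.45%, Klrc1 in 10.3%, 26.9%, 3.81% and 4.65%, Klrc2 in 7.95%, 20.6%, 4.69% and 4.14%, and Klri2 in 2.63%, 6.79%, 1.31% and 1.33%. At least 1 of the 8 was found in 51.1%, 88.6%, 40.4% and 49.7% of cells. Background was read in barcodes without Cd3 UMIs: of 79 with macrophage markers, thinned in the same way (median 6050 UMIs before thinning), 7.59% had Klrd1 and 12.7% Klrk1, and of 73 with B cell markers (median 2193 UMIs before thinning) 1.37% had Klrd1 and 2.74% Klrk1. Without thinning, 84 macrophage marker barcodes (median 5830 UMIs) had Klrd1 in 13.1% and Klrk1 in 32.1%, and 147 B cell marker barcodes (median 1499 UMIs) in 2.04% and 1.36%. For Klrc1 and Klri2 the thinned macrophage marker barcodes of all libraries together gave 3.80% and 1.27%, close to the shares of all Csf3r-/- cells. By library those barcodes gave 14.3%, 8.70%, 0% and 0% for Klrc1 and 0%, 4.35%, 0% and 0% for Klri2, from few barcodes. Klrc1 was found in 15.4% and 17.0% of Csf3r-/- type 1 marker cells, and in 0.45% and 1.38% of Csf3r-/- type 3 marker cells. How much of the shares of all Csf3r-/- cells is background was not tested.

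Among type 1 marker cells the libraries lay closer together. Klrd1 was found in 64.7%, 61.7%, 60.6% and 56.2%, Klre1 in 41.1%, 29.2%, 34.8% and 29.5%, and Klrc2 in 16.4%, 22.7%, 20.1% and 18.03%. Klrc1, at 19.6%, 29.7%, 15.4% and 17.0%, was lower in both Csf3r-/- libraries, as were Klrd1 and Klrk1, the latter at 67.9%, 74.4%, 64.5% and 65.6% (exact permutation p = 0.333 for each of the 3), while Klre1 and Klrc2 overlapped. Type 3 marker cells had Klrd1 in 1.80%, 15.4%, 3.22% and 4.42%. Apart from Csf3r+/+ library 2 these lay below the 7.59% of all macrophage marker barcodes at the same depth, and above the 1.37% of B cell marker barcodes. By library the macrophage marker barcodes gave 28.6%, 8.70%, 0% and 4.88%, from few barcodes. Whether the low shares are background was not tested. Klrk1 was found in 11.04%, 29.5%, 24.2% and 35.8% of type 3 marker cells. All macrophage marker barcodes together gave 12.7%, and by library 28.6%, 13.0%, 25.0% and 7.32%, from few barcodes. Against its own library the share was thus higher only in the libraries numbered 2. Type 3 marker cells held 6.15%, 1.79%, 38.9% and 49.8% of the Klrk1 UMIs of the thinned cells, and type 1 marker cells 76.1%, 70.1%, 32.2% and 25.9%. The other members were also spread over more classes in the Csf3r-/- libraries, where type 1 marker cells held 45.4% and 42.8% of the Klrd1 UMIs, 47.6% and 44.0% of those of Klrc1 and 49.6% and 44.3% of those of Klre1. Type 3 marker cells held 14.5% and 17.5% of the Klrd1 UMIs there. Such shares of UMIs also depend on the number of cells in each class. In the Csf3r-/- libraries type 3 marker cells were 71.1% and 74.2% of the thinned cells, and type 1 marker cells 11.9% and 11.3%.

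**Figure D3:**
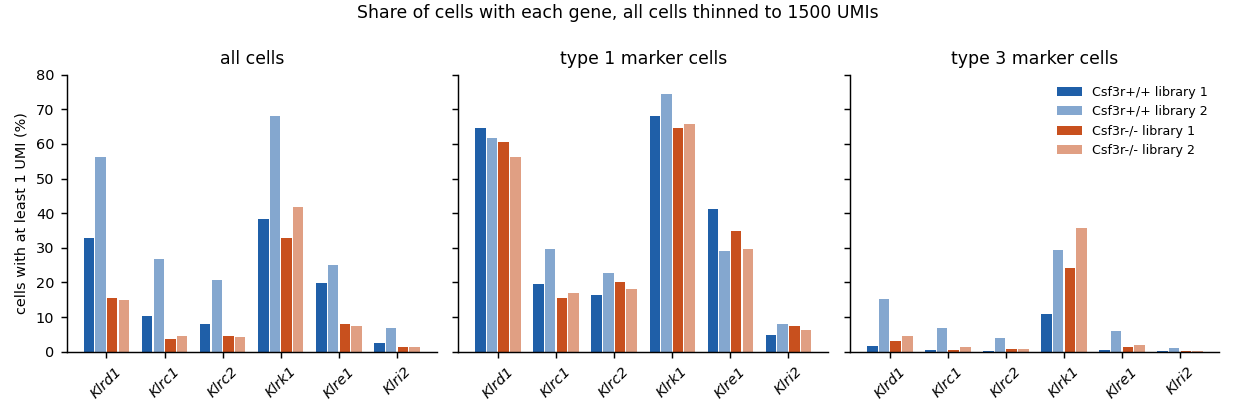
Share of cells (percent) with at least 1 UMI of each of 6 lectin genes after thinning to 1500 UMIs, in all cells, type 1 marker cells and type 3 marker cells, with 1 bar per library. In type 1 marker cells the bars of the 4 libraries lie closer together than in all cells, though those of Klrc1 run from 15.4% to 29.7%. Klrk1 has the tallest bars in type 3 marker cells (11.04% to 35.8%, beside 12.7% of all macrophage marker barcodes together).

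The pairing of chains was read in single cells. Among Klrd1 cells at 1500 UMIs, 66.6%, 56.9%, 72.3% and 74.1% had no UMI of Klrc1, Klrc2 or Klrc3, and without thinning these were 47.7%, 33.4%, 55.4% and 59.0%, so a cell without a chain here was often one in which none was detected at this depth. In the 304, 1533, 203 and 227 Klrd1 cells that did show an NKG2 chain, Klrc1 alone was found in 50.0%, 47.2%, 31.5% and 44.9%, Klrc2 or Klrc3 alone in 37.2%, 33.9%, 48.8% and 43.6%, and both kinds in 12.8%, 18.9%, 19.7% and 11.5%. The inhibitory chain alone was thus found more often than the activating chains alone in both Csf3r+/+ libraries, and less often in Csf3r-/- library 1. Without thinning, Csf3r+/+ library 2 had Klrc1 alone in 36.3%, fewer than the 37.3% with both kinds, and the activating chains alone in 26.5%. At 1000 UMIs Csf3r-/- library 1 was nearly even, with Klrc1 alone in 41.5% and the activating chains alone in 43.1%. In Csf3r-/- library 2 the order was not settled: without thinning Klrc1 alone made up 35.8% and the activating chains alone 44.0%, and in its type 1 marker cells the counts were 45 and 55. The genotypes were apart, by -10.4 percentage points for Klrc1 alone (exact permutation test, two-sided, p = 0.333), with Csf3r-/- library 2 close to Csf3r+/+ library 2. The gap was -3.68 points without Csf3r-/- library 1, -17.1 without Csf3r-/- library 2 and -6.30 without thinning. Without cells with Ncr1 or Fcer1g the genotypes overlapped, at 46.8%, 43.2%, 23.8% and 48.1%. In type 1 marker cells Klrc1 alone made up 49.6%, 47.7%, 31.5% and 39.5%. Without thinning, which finds more chains per cell, both kinds were found in 27.1%, 37.3%, 26.0% and 20.2%. Seen from the other side, 32.7%, 39.6%, 41.3% and 51.4% of cells with an NKG2 chain had no Klrd1 UMI.

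**Figure D4:**
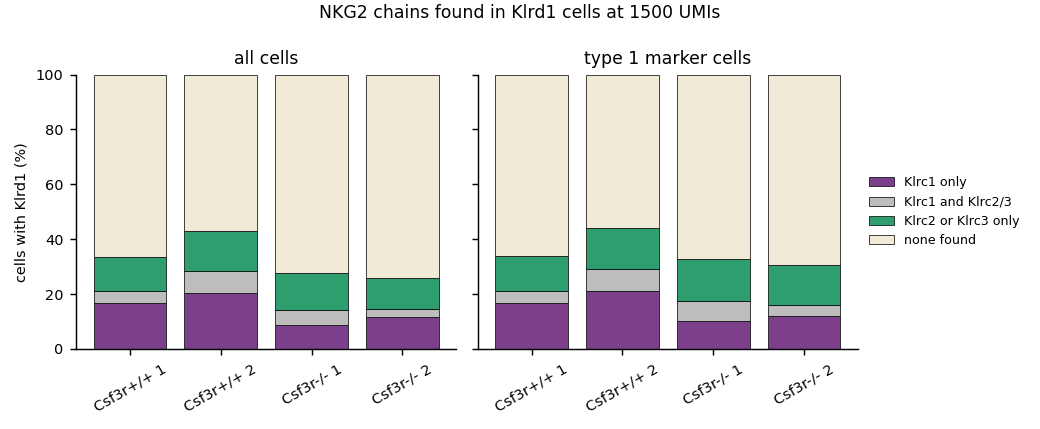
Cells with Klrd1 (percent, 1 bar per library) divided by the NKG2 chains found beside it at 1500 UMIs, in all cells and in type 1 marker cells. In every bar the largest part is cells with no chain found (56.9% to 74.1% in all cells), and the Klrc1-only part is smaller in the Csf3r-/- libraries.

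In all cells, the lectin pairs given here were found in the same cell more often than their separate shares would give. Not all pairs of members are given. Log2 odds ratios describe the cells of 1 library and carry no test. For Klrd1 with Klrc1 these were 2.31, 0.28, 3.11 and 2.52 (2.05 ± 1.23, SD, n = 4), for Klrd1 with Klrc2 2.38, 0.43, 3.50 and 2.76, and for Klrd1 with Klre1 3.09, 0.79, 3.73 and 3.15. Csf3r+/+ library 2, in which most cells were of type 1, had the lowest value for every lectin pair given here. Within type 1 marker cells the ratios shrank, to 0.42, -0.10, 0.58 and -0.25 for Klrd1 with Klrc1, to 0.20, 0.06, 0.56 and 0.06 for Klrd1 with Klrc2 and to 0.97, 0.37, 0.50 and 1.12 for Klrd1 with Klre1. Of these 3 pairs, Klrd1 with Klre1 had the highest ratio in 3 of the 4 libraries within type 1 marker cells. The inhibitory and the activating chain did not avoid each other: Klrc1 with Klrc2 gave 1.75, 0.76, 3.38 and 2.54 in all cells and 0.58, 0.50, 1.26 and 0.39 in type 1 marker cells, with the shared 3′ sequence of these genes as a limit. Klre1 with its partner Klri2 gave 2.13, 0.51, 2.54 and 2.27 in all cells, and 0.77, 0.37, -0.36 and 0.13 in type 1 marker cells. Klrk1 and its adaptor gene Hcst, which was found in most cells, gave 0.08 to 0.21. With Tyrobp, the ratios in all cells were 0.59 to 2.16 for Klrk1, 0.10 to 2.52 for Klrc2 and 0.59 to 2.69 for Klrc1. In type 1 marker cells these were -0.59 to 0.64, -0.58 to 0.37 and 0.05 to 0.93. At least 4 of the 8 lectins were found in 6.12%, 12.2%, 2.08% and 1.62% of cells, with at most 6 in 1 cell.

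**Figure D5:**
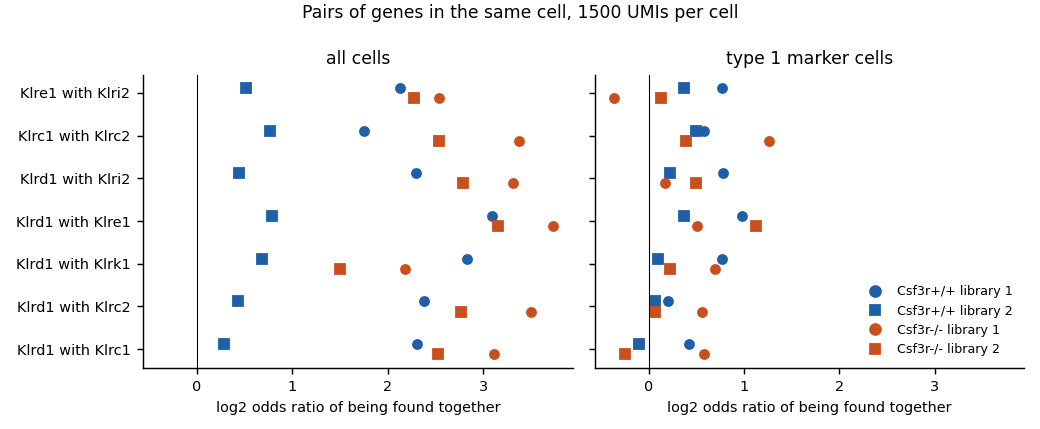
Log2 odds ratio of finding both genes of a pair in the same cell at 1500 UMIs, in all cells and in type 1 marker cells, with 1 point per library. In all cells every point lies to the right of 0, with Csf3r+/+ library 2 the lowest; in type 1 marker cells the points draw close to 0 (Klrd1 with Klrc1 from -0.25 to 0.58).

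Cells with Klrd1 were compared with cells without it within each library (6073 against 13551 cells, with Klrd1 left out of the table). All 5 other members tested were higher in Klrd1 cells by edgeR's quasi-likelihood test, against 2.48% of 10547 genes: Klre1 by 2.17 (log2, SE 0.37, adjusted p = 0.0240), Klrc2 by 1.96 (SE 0.43, adjusted p = 0.0403), Klrc1 by 1.87 (SE 0.43, adjusted p = 0.0451), Klri2 by 1.71 (SE 0.39, adjusted p = 0.0445) and Klrk1 by 1.31 (SE 0.25, adjusted p = 0.0300). Of the partner genes, Tyrobp rose by 1.78 (adjusted p = 0.0233), Ptpn6 by 0.60 (adjusted p = 0.0307) and Il2rb by 1.04 (adjusted p = 0.0368), 1 of 14, 1 of 3 and 1 of 8 in their lists, and 0 of 7 ligand genes passed. All 5 lectin calls were lost without Csf3r+/+ library 1 (adjusted p = 0.103 to 0.175), without Csf3r-/- library 1 (0.143 to 0.187) and without Csf3r-/- library 2 (0.149 to 0.226), and held without Csf3r+/+ library 2. Type 1 marker cells made up 42.4% to 77.1% of Klrd1 cells and 5.58% to 54.0% of the others, and Klrd1 cells were deeper, with median UMIs of 2600 to 3525.5 against 2043 to 2906.5. When type 1 marker cells alone were compared, an alternative added after the data were seen, Klre1 was still higher by 0.51 (adjusted p = 0.000313) and Klrk1 by 0.29 (adjusted p = 0.00538), where 0.498% of genes were higher. Klri2 at 0.30 (adjusted p = 0.306), Klrc2 at 0.21 (adjusted p = 0.404) and Klrc1 at 0.21 (adjusted p = 0.608) did not pass. NK cell markers were at 991 to 2070 CPM in Klrd1 cells and at 200.1 to 677 in the others. Without cells with Ncr1 or Fcer1g all 5 lectins were still higher (adjusted p = 0.00196 to 0.00727), where 4.78% of genes were higher.

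Cells that showed the inhibitory chain alone (Klrc1, 1815 cells) were next set against cells that showed an activating chain alone (Klrc2 or Klrc3, 1371 cells), whether or not Klrd1 was found. The sets were drawn after thinning, so a cell in either set could hold UMIs of the other chain that thinning left out. Among Klrd1 cells with a chain found, 12.8%, 18.9%, 19.7% and 11.5% had both kinds after thinning. Without thinning these shares were 27.1%, 37.3%, 26.0% and 20.2%. Between the sets, edgeR's quasi-likelihood test called 11 of 5494 genes (0.2%). How alike the sets were was not tested, because cells with both chains in either set can hide differences. The activating receptor gene Klri2 was the only member called, at 15.05, 44.0, 34.8 and 13.2 CPM in Klrc1 cells against 64.9, 82.8, 34.4 and 38.6 in Klrc2 or Klrc3 cells. It was lower in Klrc1 cells in 3 of 4 libraries and level in Csf3r-/- library 1, with a change of -1.05 (log2, SE 0.18, adjusted p = 0.00243), where 0.127% of genes were lower. The call held within type 1 marker cells (-1.04, adjusted p = 0.00117), where 0.277% of genes were lower, and was lost with DESeq2 (-1.13, adjusted p = 0.609). Klrd1 changed by -0.16 (SE 0.05, adjusted p = 0.311), Klrk1 by -0.11 (SE 0.05, adjusted p = 0.830) and Klre1 by 0.07 (SE 0.06, adjusted p = 0.99996). Higher in Klrc1 cells were the granzyme gene Gzmk, by 1.99 (adjusted p = 0.0386), the chemokine genes Ccl4, by 0.79 (adjusted p = 8.36e-06), and Ccl5, by 0.41 (adjusted p = 3.66e-05), and the adaptor gene Sh2d1a, by 0.51 (adjusted p = 0.0156). Lower were the carbonic anhydrase gene Car2, at -1.10 (adjusted p = 0.000504), the interferon-induced Ifitm3, at -0.68 (adjusted p = 1.83e-05), the granzyme gene Gzmb, a gene of the type 1 list, at -0.43 (adjusted p = 3.74e-05), and a Ly49 gene (Klra9), at -0.92 (adjusted p = 1.81e-09). How much 3′ sequence Klra9 shares with other Ly49 genes was not measured. None of the partner genes passed. NK cell markers were at 743 to 1976 CPM in Klrc1 cells and at 914 to 2012 in the others, and median UMIs were 2673 to 3602 and 2402 to 3445.5.

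The genes found most often in the same cells as Klrd1, by the mean over 4 libraries of the phi coefficient of detection among 5018 genes, were Ly6c2 (0.461), a surface protein of memory-like T cells, the chemokine gene Ccl5 (0.427), the chemokine gene Xcl1 of the type 1 list (0.398), the cytotoxic granule gene Nkg7 (0.389) and the receptor adaptor gene Fcer1g (0.368). Ms4a4b (0.352), Gimap4 (0.337), the cathepsin gene Ctsw (0.333) and the receptor gene Cd160 (0.309) were also among the 10, with a Ly49 gene. Among the lectins, phi with Klrd1 was 0.308 for Klre1, 0.251 for Klrk1, 0.197 for Klrc2, 0.180 for Klrc1 and 0.112 for Klri2, values that also depend on how often a gene is detected. Phi of Klrc1 with Klri2 was 0.018, -0.012, 0.026 and 0.017 by library. The 5 genes most like Klrk1 were Ly6c2 (0.329), Ccl5 (0.301), Xcl1 (0.274), Nkg7 (0.272) and Ms4a4b (0.224), all of them also in the Klrd1 list. Ly49 genes, taken as a sum over 11 Klra symbols, were found in 79.6%, 70.7%, 64.2% and 60.8% of Klrd1 cells and in 17.5%, 51.7%, 7.58% and 10.5% of the other cells. These coefficients share library, depth and class make-up and are a description.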

How the data were processed

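Single-cell RNA-seq (10x Genomics 3′ chemistry) was made from 4 sorted UTCαβ libraries. The authors aligned the reads and counted UMIs with Cell Ranger on an mm10 reference, pooled the 2 libraries of each genotype, and deposited the raw UMI counts per gene and barcode, with the number after each barcode giving the library. Of these counts, barcodes were kept at 200 or more genes, at most 20000 UMIs, at most 10% mitochondrial UMIs and at least 1 Cd3e UMI. The number is not tied to a sample by the labels, so it only names a library. No doublet caller was run; leaving out the 5% of cells with most UMIs was an alternative. UMI counts were summed per library and set of cells and tested with edgeR 4.0.16 in R 4.3.3 (filterByExpr, TMM, quasi-likelihood F test, Benjamini-Hochberg over all genes tested, threshold 0.05), with the library as a block where sets of cells were compared; DESeq2 1.42.0 was an alternative. The genes that define the classes, or the sets of cells, were left out of those tables. One gene of the type 3 marker list is not reported here. Shares, pairing and phi used cells thinned at random to 1500 UMIs (numpy 2.4.6). The edgeR fits were tested on simulated counts, but the thinning, shares, pairing and phi were not. Depth was 9827411 to 23753033 UMIs per library. In the comparisons of genotypes, p-values measure the spread between 2 libraries per genotype. Where the library was a block, they measure how the differences within libraries varied from library to library. Members are named in every comparison. Of the partner lists, genes past the threshold are named, at most 4 a list; the 10 genes with the highest phi for Klrd1 and 5 for Klrk1 are named, and up to 5 genes in each direction between Klrc1 and Klrc2 or Klrc3 cells. Ly49 genes are given as a sum. Klra9 was named after its value was seen, outside this rule. The members and lists were chosen with earlier results of these data known. Alternatives were other filters, gates, thinning depths, normalization and left-out libraries, and alternatives without cells with macrophage or B cell markers, or within type 1 marker cells only, were chosen after seeing the data.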

Additional observations from a re-analysis of the deposited data

Results flagged for a closer look

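Barcodes without a Cd3e UMI also held lectin UMIs, in more than 3 thinned barcodes of every library for each lectin named here. That bar is low and takes no account of background. No main comparison used the barcodes without Cd3e, and only the alternative with no Cd3e minimum took them in. After the same limits on genes, UMIs and mitochondrial share they numbered 741, 5047, 1953 and 3309 in the libraries, of which 682, 4841, 1441 and 2421 had at least 1500 UMIs and were thinned to that number (median UMIs before thinning 2757.5, 2565, 2029 and 1961). The mean share with a UMI over the 4 libraries, thinned, was 34.0% for Klrd1, 48.7% for Klrk1, 17.1% for Klre1, 11.6% for Klrc1, 10.2% for Klrc2 and 4.72% for Klri2. For Klrd1 the thinned shares were 47.2%, 54.2%, 16.6% and 18.1% by library, again lower in both Csf3r-/- libraries, and 52.1%, 67.9%, 17.2% and 18.7% of all such barcodes without thinning. Klri2 was found in 7.04%, 8.57%, 1.32% and 1.94% of the thinned barcodes. Beside these, thinned macrophage marker barcodes of all libraries together had Klrd1 in 7.59% and Klri2 in 1.27%, and B cell marker barcodes had each in 1.37%. Whether the barcodes without Cd3e were T cells in which it was missed, and how much of their lectin UMIs was background, was not tested.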

How the results depend on the processing

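All 6 class differences of the lectins kept their direction and call under every alternative run. Other counts of called genes moved by over 1.5 times, with ranges over left-out libraries last. For genotypes in all cells (0) these were 622 with DESeq2, 303 with no filter on low counts, 300 with the replicate block, and 0 to 847. For type 1 marker cells (63) they were 168, 380 and 346, then 0 without Ncr1 or Fcer1g cells, 40 at 1000 UMIs, 40 at 2000 UMIs, and 0 to 493. For type 3 marker cells (0) they were 211, 174 and 202, then 62 without the 5% deepest cells, 64 without Ncr1 or Fcer1g cells, 57 without macrophage or B cell markers, and 1 at a gate of 3 UMIs. Classes (2931) gave 1401 with no library block. The interaction (23) gave 229 with no filter, 10 without the deepest cells, 7 with no Cd3e minimum, 43 without macrophage or B cell markers, 4 at 2000 UMIs, 8 at a gate of 1 UMI, and 13 to 84. Klrd1 cells (700) gave 1578 with no filter, 0 with no block, 83 in type 1 marker cells, and 0 to 2271. Klrc1 cells (11) gave 4 with DESeq2, 30 with no filter, 0 with no block, 18 in type 1 marker cells, 37 without the deepest cells, 23 with no Cd3e minimum, 17 without macrophage or B cell markers, 7 at 1000 and 17 at 2000 UMIs, and 7 to 26. The cause of these shifts was not tested. Genotype terms within classes and interaction terms changed sign, and not only small ones (Klrc1 was at -1.75 in type 3 marker cells). Over left-out libraries they ran, in type 1 marker cells, from -0.51 to 0.020 for Klre1, -0.33 to 0.45 for Klrc2 and -0.39 to 0.70 for Klri2 (lowest without Csf3r+/+ library 2 for Klre1 and without Csf3r+/+ library 1 for the others). In type 3 marker cells they ran from -1.54 to 1.51 for Klre1, -2.20 to 1.63 for Klrd1, -2.22 to 3.05 for Klrc2, -2.82 to 1.23 for Klrc1, -2.26 to 0.75 for Klri2 and -0.38 to 1.85 for Klrk1, each lowest without Csf3r+/+ library 1 and highest without library 2. In the interaction they ran from -2.04 to 1.53 for Klre1, -2.12 to 2.01 for Klrd1, -1.84 to 0.0064 for Klrk1, -2.60 to 1.86 for Klrc2, -1.40 to 1.74 for Klrc1 and -0.060 to 1.97 for Klri2, lowest without Csf3r+/+ library 2. Signs also changed in type 1 marker cells for Klrc2, to -0.017 with no filter, -0.0035 at the study's gene limits, -0.040 without Ncr1 or Fcer1g cells, -0.0052 without macrophage or B cell markers, -0.10 at 1000 UMIs and -0.0096 at a gate of 3, and for Klri2, to -0.13 with no Cd3e minimum, -0.29 without Ncr1 or Fcer1g cells, -0.053 at 1000 UMIs and -0.070 at a gate of 1. In the interaction Klre1 became 0.39 without the deepest cells, 0.18 with no Cd3e minimum, 0.24 without Ncr1 or Fcer1g cells, 0.050 at 1000 UMIs, 0.12 at a gate of 1 and 0.018 at a gate of 3, Klrd1 -0.0079 with DESeq2 and -0.12 at 2000 UMIs, and Klrc2 -0.20 with DESeq2. The difference between libraries 1 and 2 in Csf3r+/+ correlated with that in Csf3r-/- at r = 0.325 over 11491 genes. This single correlation cannot tell whether libraries of one number belong together. The replicate block is not a pairing by animal, because the genotypes are different mice. At 2 libraries per genotype, and 475 type 3 marker cells in Csf3r+/+ library 2, small genotype differences were not detectable.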
